A study of Bos taurus with 32 samples.

Results

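The heat shock chaperones and their co-chaperones were followed in the liver of dairy cows around calving. The set was chosen by gene name alone: genes with an array symbol that starts with DNAJA, DNAJB, DNAJC, HSPA, HSPB, HSPD, HSPE, HSPH or HSP90, the chaperonin subunits CCT2 to CCT8 and TCP1, and the co-chaperones BAG1 to BAG6. The pattern matched 59 genes, and 3 chaperones of the endoplasmic reticulum (HSPA5, HSP90B1 and DNAJC3) were left out by name, which left 56 members of 9155 genes with a symbol of their own on the array. No probe set named TCP1 or CCT7 alone was found. The members were 8 genes of the HSP70 and HSP110 families, 2 HSP90 genes, HSPD1 and HSPE1, 6 chaperonin subunits, the J proteins (3 DNAJA, 7 DNAJB and 15 DNAJC), 5 small heat shock proteins, the partners HSPBP1 and HSPBAP1, and 6 BAG genes. The set is not purely cytosolic and mitochondrial: DNAJB9, DNAJB11, DNAJB12, DNAJC10 and DNAJC18 encode proteins of the endoplasmic reticulum.

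Heat shock chaperones bind unfolded stretches of other proteins and let them fold, cross a membrane or be degraded. HSP70 does so in cycles of ATP hydrolysis: a J protein brings the client and starts hydrolysis, and a nucleotide exchange factor of the HSP110 or BAG families ends the cycle. HSP90 takes over late folding steps of kinases and receptors, the CCT ring folds actin and tubulin, HSPD1 with its lid HSPE1 folds proteins in the mitochondrial matrix, and many of these genes are induced by heat shock factors when unfolded proteins build up in the cytosol.

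The animals were Ayrshire dairy cows. During the 6 weeks that led up to the expected calving, the CON cows were fed to a controlled energy intake and the HIGH cows to a high one. Liver was biopsied at -8 d, counted from the expected calving, and again at 1 d and at 9 d, counted from the actual one. Total RNA of each biopsy was hybridised to 1 bovine Affymetrix array. In order of day, the CON group had 5, 4 and 6 arrays and the HIGH group had 5, 6 and 6. The 32 arrays came from 12 cows, 6 per diet, of which 8 had arrays on all 3 days (3 CON and 5 HIGH). No group was without calving, so day, calving and onset of lactation cannot be told apart, and the labels used here give no age or parity. The design text names more cows than the 12 with arrays. All values are deposited log2 RMA values, in which a difference of 1 is a doubling of signal and changes are relative to the bulk of the array.

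Every array read as liver: ALB, the major hepatocyte product, lay between 14.85 and 15, and the mean over 11 hepatocyte markers lay between 13.69 and 13.98. In bulk tissue, fewer cells of a type and less RNA per cell cannot be told apart. Array medians lay between 5.87 and 5.935. The array of cow 528 in CON at 9 d carried striated muscle transcripts (ACTA1 9.31, against 3.91 or less on every array at -8 d and 1 d), and that of cow 432 in HIGH at 9 d did so to a lesser degree (ACTA1 5.45). Results that changed without these 2 arrays are given with both values. The array of cow 512 in HIGH at 1 d stood apart in stress-inducible members, as described further on. Of the 11 hepatocyte markers 3 rose and 7 fell at 1 d, with a median change of -0.10. Of 6 neutrophil markers 4 rose at 1 d (S100A8, S100A9, S100A12 and LTF), with a mean level over the 6 of 6.07 at -8 d (5.74 to 6.41), 7.19 at 1 d (6.61 to 8.23) and 6.52 at 9 d (6.05 to 7.12). The remaining markers were low and flat: MPO averaged 5.13 at -8 d and 5.17 at 1 d, and CAMP 4.37 and 4.41. Signal at the 3' end of the control transcript EF1A minus that at its 5' end averaged -0.68 ± 0.12, -1.07 ± 0.15 and -0.81 ± 0.13 on the successive days (SD over 10, 10 and 12 arrays), and was thus lowest at 1 d. The other controls did not shift in this way at 1 d: the difference averaged 0.54, 0.53 and 0.58 for GAPD and 1.60, 1.61 and 1.78 for actin. The highest actin difference was 2.2 at -8 d, 1.92 at 1 d and 3.87 at 9 d. The part of these shifts in the results below was not tested.

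Most members were strongly expressed. Their mean levels over all arrays had a median of 8.51, against 7.22 for the brightest probe set of every gene on the array. HSPD1 was highest at 13.16, followed by HSP90AA1 at 12.65, HSPB1 at 12.58, HSPE1 at 12.27 and HSPA8 at 12.09, although levels of different probe sets on an array are not strictly comparable. HSPB3, a small heat shock protein of muscle, was lowest at 3.17. The mean level was highest at 1 d for 22 members, at 9 d for 20 and at -8 d for 14. Such a count was not made over all genes, and some day means barely differed (HSPB3 3.18, 3.15 and 3.17 on the successive days).

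Over both diets, 18 of the 56 members passed an adjusted p of 0.05 from -8 d to 1 d (limma with Benjamini-Hochberg adjustment over 24016 probe sets): 15 rose and 3 fell. That was 32.1% of the members, against 23.0% of all probe sets (11.5% rose and 11.6% fell) and 28.8% of all genes by their brightest probe set. From -8 d to 9 d, 12 members passed (11 rose and 1 fell), which was 21.4%, against 9.44% of probe sets (5.18% rose and 4.25% fell) and 12.9% of genes. From 1 d to 9 d, 9 passed (4 rose and 5 fell), which was 16.1%, against 13.1% of probe sets (6.11% rose and 6.99% fell) and 17.5% of genes. The shares at 1 d and from 1 d to 9 d were therefore near the background of the array, and the share at 9 d against -8 d lay above it, with no test of that difference. The median change of the members was 0.08, 0.07 and 0.01 in the 3 comparisons, against 0.0004, -0.0062 and -0.0068 over all genes. In all, 26 members passed in at least 1 of the 3 comparisons, which share arrays, and 30 in none. No such count was made over all genes, so whether 26 lies above the background of the array was not tested. With only the 8 cows sampled on all 3 days, 9 members passed from -8 d to 1 d (BAG2, BAG4, DNAJA3, DNAJB9, DNAJC5, DNAJC10, DNAJC11, HSPA4 and HSPA14), and 6 from -8 d to 9 d (BAG2, BAG4, DNAJC9, DNAJC11, HSPA1A and HSPA2). From 1 d to 9 d, 8 passed in those cows, among them 5 of the 9 calls above. The share of all probe sets that passed in this smaller fit is not given here, so its counts cannot be set against the array. A second quantile normalisation of the arrays left HSPA8, CCT6A, DNAJB5, DNAJB11 and DNAJC19 at 1 d, CCT5 and DNAJA3 at 9 d, and DNAJB5 from 1 d to 9 d above the threshold, with adjusted p from 0.051 to 0.14.

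**Figure D1:**
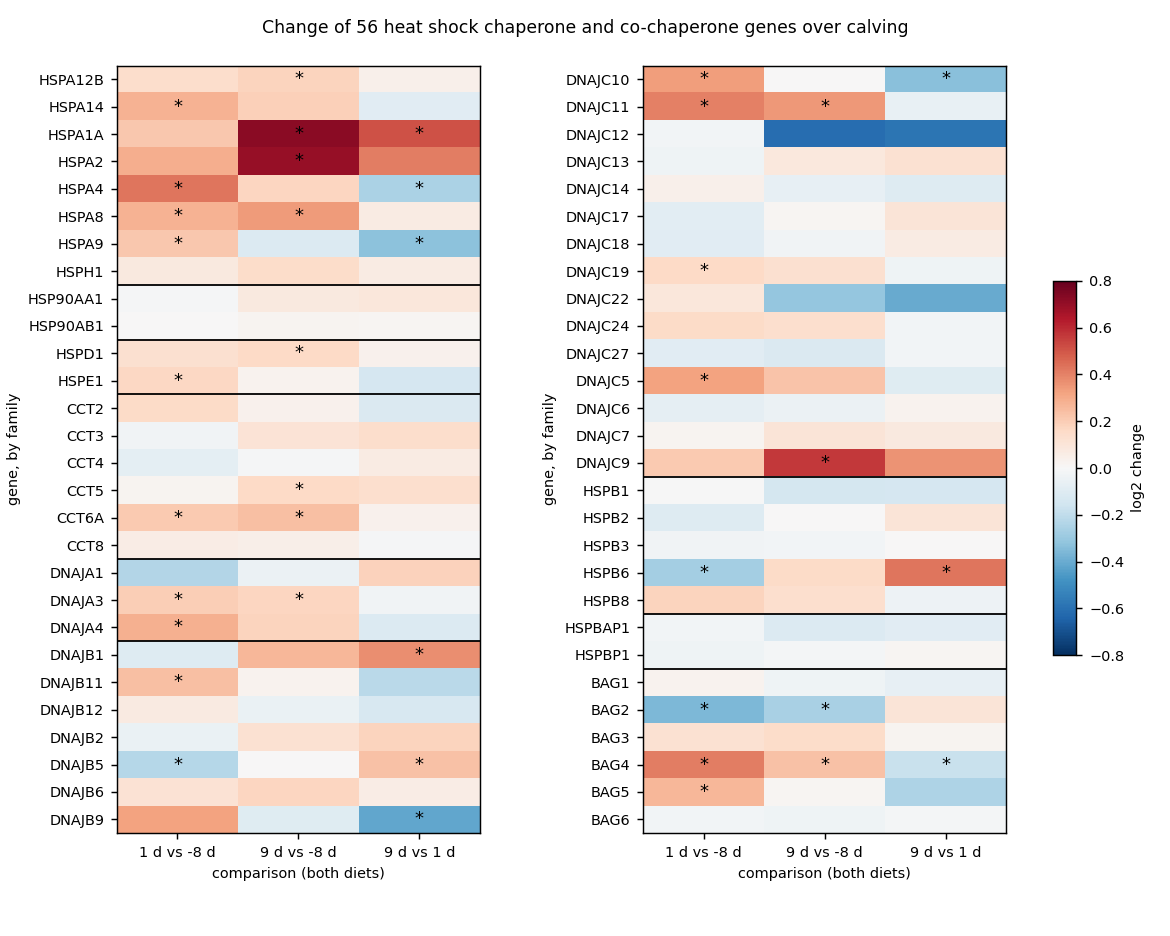
Log2 change of each of the 56 members (rows, grouped by family) in the 3 comparisons of days averaged over the diets (columns); colour gives the change from -0.8 to 0.8 and an asterisk an adjusted p under 0.05. The darkest red cells are HSPA1A and HSPA2 at 9 d against -8 d (0.72 and 0.70), and the HSP90 rows are near white throughout.

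The HSP70 and HSP110 families held the largest rises past the threshold at each day against -8 d. Of the 8 members, 4 rose at 1 d (HSPA4, HSPA14, HSPA8 and HSPA9) and 4 rose at 9 d against -8 d (HSPA1A, HSPA2, HSPA8 and HSPA12B), and none fell in either. Over all genes by their brightest probe set, 16.5% rose at 1 d and 7.79% at 9 d. A second probe set of HSPA4 fell at 1 d, as given below. The median change of the 8 was 0.25 at 1 d and 0.18 at 9 d.

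HSPA1A, the stress-inducible cytosolic HSP70, rose late by its brightest probe set. It read 11.82, 11.48, 11.34, 11.13 and 11.73 on the CON arrays at -8 d and 10.63, 11.26, 11.34, 11.75 and 11.57 on the HIGH arrays. At 1 d the CON arrays read 11.66, 11.57, 11.73 and 11.80, and the HIGH arrays ran from 10.99 through a median of 11.50 to 12.18. At 9 d they ran from 11.73 through 12.08 to 12.61 in CON and from 11.98 through 12.06 to 12.41 in HIGH. All 6 HIGH arrays at 9 d thus lay above all 5 at -8 d, whereas the lowest CON array at 9 d lay below the highest at -8 d. The rise from -8 d to 9 d was 0.72 (SE 0.13, 1.65-fold, limma adjusted p = 0.00031), with 9 of 10 cows higher, and the rise from 1 d to 9 d was 0.51 (SE 0.13, adjusted p = 0.0069), also with 9 of 10 cows higher. From -8 d to 1 d the change was 0.21 (SE 0.14, adjusted p = 0.28), with 4 cows higher and 4 lower. In the mean of all probe sets with this symbol that change was 0.23 and passed (adjusted p = 0.019). A dimmer probe set also rose from -8 d to 1 d, by 0.45 (limma adjusted p = 0.041). From 1 d to 9 d the only dimmer probe set that passed rose by 0.49 (adjusted p = 0.022). The timing of the rise thus depends on the probe set. Of the 6 probe sets, 4 rose from -8 d to 9 d (0.72, 0.71, 0.68 and 0.50), and the remaining 2 changed by 0.00 and 0.03. A near-identical gene copy, HSPA1B, may share these probes, so the signal cannot be assigned to HSPA1A alone.

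HSPA2, an HSP70 best known from the testis, was expressed at a low level and was also higher at 9 d than before calving. At -8 d it read 4.82, 5.09, 5.49, 5.39 and 5.81 in CON and 5.50, 5.00, 5.34, 5.94 and 5.18 in HIGH. At 1 d the CON arrays read 5.48, 5.80, 5.57 and 5.48, and the HIGH arrays ran from 5.37 through 5.67 to 6.01. By 9 d CON ran from 5.57 through 5.82 to 6.86 and HIGH from 5.61 through 5.92 to 6.65. The groups overlapped, but HSPA2 rose between -8 d and 9 d within each of the 10 cows with arrays on both days. The rise was 0.70 (SE 0.14, 1.62-fold, limma adjusted p = 0.0012), the change from -8 d to 1 d was 0.29 (adjusted p = 0.17; 7 of 8 cows higher), and the change from 1 d to 9 d was 0.41 (adjusted p = 0.054), which passed in 9 of 32 fits that each left out 1 array.

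HSPA8, the constitutive cytosolic HSP70, passed at both 1 d and 9 d against -8 d. It read 12.09, 11.79, 12.01, 11.61 and 12.02 in CON and 11.52, 11.78, 11.79, 12.04 and 12.07 in HIGH at -8 d. The CON arrays at 1 d fell into a lower pair (11.92 and 12) and a higher pair (12.52 and 12.51), and HIGH ran from 11.75 through 12.06 to 12.52. The CON arrays at 9 d ran from 11.99 through 12.14 to 12.42 and HIGH from 12.08 through 12.32 to 12.54, the latter above every HIGH array at -8 d. The rise was 0.28 at 1 d (SE 0.09, limma adjusted p = 0.032) and 0.34 at 9 d (SE 0.09, adjusted p = 0.011), with 9 of 10 cows higher at 9 d, but with 4 of 8 higher, 3 lower and 1 equal at 1 d. The call at 1 d was lost in 8 of 32 fits that each left out 1 array (changes of 0.23 to 0.33) and with cow as a fixed effect (0.25, adjusted p = 0.059).

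HSPA4, an HSP110-type exchange factor for HSP70, rose at 1 d and then fell. At -8 d it read 8.63, 8.25, 8.45, 8.11 and 8.34 in CON and 7.79, 8.36, 8.28, 8.16 and 8.39 in HIGH. CON arrays at 1 d read 8.48, 8.43, 8.80 and 8.95, and the HIGH arrays ran from 8.61 through 8.71 to 9.04, above all 5 HIGH arrays at -8 d. At day 9 CON ran from 8.17 through 8.43 to 8.57 and HIGH from 8.33 through 8.46 to 8.72. The change was 0.43 from -8 d to 1 d (SE 0.08, 1.35-fold, limma adjusted p = 0.00017) and -0.26 from 1 d to 9 d (SE 0.08, adjusted p = 0.022). The latter was lost without cow 483 (-0.24, adjusted p = 0.057) or cow 510 (-0.21, adjusted p = 0.081) in CON at 1 d. A second, dimmer probe set of HSPA4 moved the opposite way: -0.20 from -8 d to 1 d (adjusted p = 0.033) and 0.21 from 1 d to 9 d (adjusted p = 0.028). Averaged over both probe sets, the changes were 0.12 (adjusted p = 0.17) and -0.02 (adjusted p = 0.85), so the direction of HSPA4 depends on the probe set.

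The other HSP70 relatives moved by less. HSPA14, a ribosome-associated HSP70, rose by 0.28 at 1 d (SE 0.08, limma adjusted p = 0.0067), and its second probe set rose by 0.30. HSPA12B, a distant relative known from endothelium, rose by 0.18 at 9 d against -8 d (SE 0.05, adjusted p = 0.033), a call lost with cow as a fixed effect (adjusted p = 0.065) and without the 2 arrays with muscle transcripts (0.17, adjusted p = 0.059). HSPH1, the stress-inducible HSP110, did not pass in any comparison. Its mean was 9.29 ± 0.34, 9.38 ± 0.44 and 9.45 ± 0.38 on the successive days (SD over 10, 10 and 12 arrays), and the 95% interval of its change from -8 d to 9 d ran from -0.16 to 0.45.

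**Figure D2:**
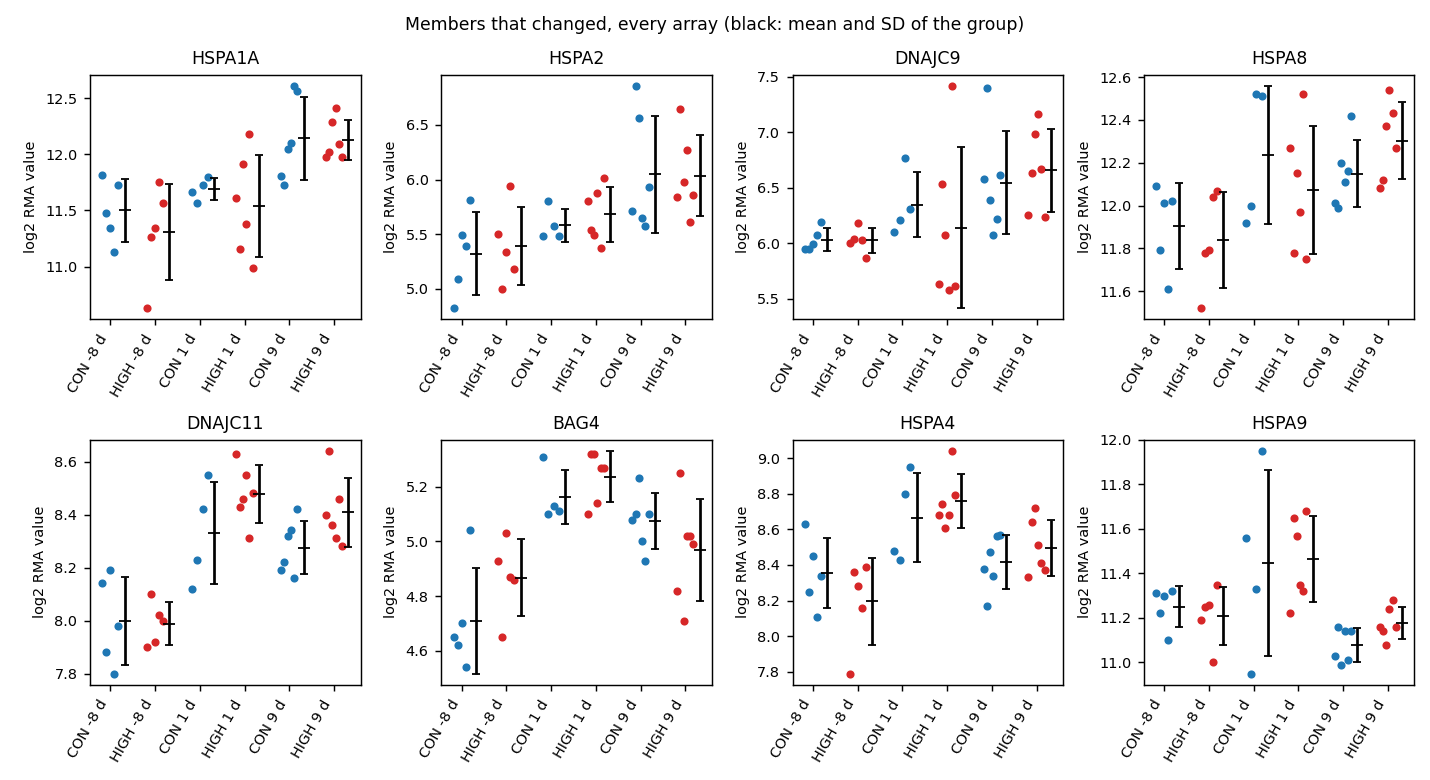
Log2 RMA value (vertical axis) of 8 members that changed, on every array of the 6 diet-by-day groups (horizontal axis; blue CON, red HIGH), with the group mean and SD in black. HSPA1A and HSPA2 are highest at 9 d, DNAJC11 and BAG4 are higher at 1 d than at -8 d in both diets, and HSPA9 is highest at 1 d.

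Neither HSP90 gene passed in any comparison of days. HSP90AA1, the inducible form, had means of 12.63 ± 0.08, 12.61 ± 0.18 and 12.71 ± 0.13 on the successive days (SD over 10, 10 and 12 arrays). HSP90AB1, the constitutive form, had 11.27 ± 0.12, 11.26 ± 0.23 and 11.30 ± 0.20. The arrays of all 3 days overlapped widely for both genes. The 95% intervals of the change from -8 d to 1 d ran from -0.14 to 0.11 for HSP90AA1 and from -0.15 to 0.16 for HSP90AB1, and those from -8 d to 9 d from -0.04 to 0.20 and from -0.13 to 0.17.

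Of 6 members located in mitochondria (HSPA9, HSPD1, HSPE1, DNAJA3, DNAJC11 and DNAJC19), 5 rose at 1 d, with a median change of 0.18, and 3 rose at 9 d against -8 d, with a median of 0.14, where 16.5% and 7.79% of all genes rose. The list was drawn up with earlier results known, and whether it differed from other genes was not tested. None fell against -8 d. HSPA9 fell from 1 d to 9 d.

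HSPD1, the HSP60 of the matrix, read 13.13, 13.01, 13.08, 13.02 and 13 in CON and 13.01, 13.11, 13.08, 13.12 and 13.01 in HIGH at -8 d. At 1 d the CON arrays read 13.31, 13.15, 13.07 and 13.32, and HIGH ran from 12.82 through 13.21 to 13.36. CON then ran at 9 d from 13.14 through 13.23 to 13.27 and HIGH from 13.07 through 13.24 to 13.39. All 6 CON arrays at 9 d lay above all 5 at -8 d, and the level rose between these days in 10 of 10 cows. The rise was 0.16 (SE 0.04, limma adjusted p = 0.020) at 9 d and 0.13 (SE 0.05, adjusted p = 0.0503, just above the threshold) at 1 d. The latter passed with arrays centred on their medians (adjusted p = 0.042) and in 7 of 32 fits without 1 array. A signal this close to the top of the scale, which reached 15, may understate a change.

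HSPE1, the lid of HSPD1, passed at 1 d and not at 9 d against -8 d. It read 12.34, 12.27, 12.21, 12.08 and 12.18 in CON and 12.16, 12.24, 12.19, 12.13 and 12.25 in HIGH at -8 d. At 1 d the CON arrays read 12.29, 12.26, 12.32 and 12.40, and HIGH ran from 12.27 through 12.40 to 12.68, above every HIGH array at -8 d. By 9 d CON ran from 12.14 through 12.21 to 12.31 and HIGH from 12.05 through 12.28 to 12.53. The rise at 1 d was 0.16 (SE 0.05, limma adjusted p = 0.016), and the change from -8 d to 9 d was 0.03 (SE 0.05, adjusted p = 0.77).

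HSPA9, the mitochondrial HSP70 that pulls proteins into the matrix, was highest at 1 d. At -8 d it read 11.31, 11.22, 11.30, 11.10 and 11.32 in CON and 11.19, 11.25, 11.26, 11 and 11.35 in HIGH. The 4 CON arrays at 1 d spread from 10.95 to 11.95 (11.56, 10.95, 11.33 and 11.95), and HIGH ran from 11.22 through 11.46 to 11.68. At 9 d both diets were narrow, with CON from 10.99 through 11.09 to 11.16 and HIGH from 11.08 through 11.16 to 11.28. The fall from 1 d to 9 d was -0.33 (SE 0.07, limma adjusted p = 0.0021), with 9 of 10 cows lower. The preceding rise was 0.22 (SE 0.08, adjusted p = 0.036), a call lost in 8 of 32 fits without 1 array (0.14 to 0.30) and with cow as a fixed effect (0.19, adjusted p = 0.091).

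DNAJC11, a mitochondrial J protein linked to the cristae junction complex, had the smallest p of all members. It read 8.14, 7.88, 8.19, 7.80 and 7.98 in CON and 7.90, 8.10, 7.92, 8.02 and 8.00 in HIGH at -8 d. The CON arrays at 1 d read 8.12, 8.23, 8.42 and 8.55, and the HIGH arrays ran from 8.31 through 8.47 to 8.63. By 9 d CON ran from 8.16 through 8.27 to 8.42 and HIGH from 8.28 through 8.38 to 8.64. In HIGH, all arrays after calving lay above all arrays before it, and in CON they overlapped at the edge. The rise was 0.41 at 1 d (SE 0.06, 1.32-fold, limma adjusted p = 5.5e-06; 7 of 8 cows higher) and 0.35 at 9 d (SE 0.05, 1.27-fold, adjusted p = 7.7e-05; 10 of 10 cows higher).

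DNAJA3, a mitochondrial J protein that works with HSPA9, rose by 0.20 at 1 d (limma adjusted p = 0.0087; 8 of 8 cows higher) and by 0.17 at 9 d (adjusted p = 0.032). The call at 9 d was lost in 9 of 32 fits without 1 array, with changes from 0.15 to 0.20. DNAJC19, part of the import motor of the inner membrane, rose by 0.16 at 1 d (adjusted p = 0.040), a call lost in 13 of those fits and with cow as a fixed effect (0.15, adjusted p = 0.058).

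Some mitochondrial partners outside the name rule also passed, and those named here were picked for the size of their change. TRAP1, the mitochondrial HSP90, rose by 0.62 at 1 d (SE 0.08, 1.54-fold, limma adjusted p = 1.2e-06) and by 0.33 at 9 d against -8 d, and fell by 0.30 on the log2 scale from 1 d to 9 d. GRPEL1, the exchange factor of HSPA9, rose by 0.32 at 1 d and 0.36 at 9 d (adjusted p = 0.0001), and CLPB, a mitochondrial disaggregase, changed by 0.36 at 1 d and by -0.30 from 1 d to 9 d. Of 43 measured co-chaperones outside the rule, 10 rose and 3 fell at 1 d, 7 rose and 1 fell at 9 d against -8 d, and 3 rose and 4 fell from 1 d to 9 d, with medians of 0.04, 0.01 and 0.02. By their brightest probe set, 28.8%, 12.9% and 17.5% of all genes passed in these comparisons in either direction. Whether the list differed from other genes was not tested. CHORDC1, an HSP90 co-chaperone, rose by 0.43 at 1 d. TOMM34, which carries mitochondrial precursors between HSP70 and HSP90, rose by 0.40 at 1 d, and PPID, an HSP90-bound isomerase, by 0.35 at 9 d against -8 d. TOMM34 was chosen after its values were seen. The prefoldin subunits, which hand actin and tubulin to the CCT ring, moved in opposite directions: at 1 d PFDN5 fell by 0.43 on the log2 scale and VBP1 rose by 0.35, and from 1 d to 9 d VBP1 fell by 0.36 on the log2 scale and PFDN5 rose by 0.20.

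The CCT ring changed little. At 1 d, where 16.5% of all genes rose, 1 of 6 measured subunits rose (CCT6A, 0.21, SE 0.07, limma adjusted p = 0.038). At 9 d against -8 d, where 7.79% of all genes rose, 2 subunits rose: CCT6A by 0.24 (SE 0.07, adjusted p = 0.024) and CCT5 by 0.16 (SE 0.05, adjusted p = 0.049). CCT2, CCT3, CCT4 and CCT8 passed in neither, with changes from -0.08 to 0.15 at 1 d. The calls were close to the threshold: with cow as a fixed effect CCT6A at 1 d had an adjusted p of 0.073 and CCT5 0.11, and CCT5 was lost in 24 of 32 fits without 1 array. CCT6A at 9 d was lost without either of 2 arrays at -8 d, cow 527 in CON or cow 432 in HIGH, with changes of 0.22 and 0.17.

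The cytosolic J proteins did not move as a group. DNAJA1 and DNAJB1 are the stress-inducible partners of HSPA1A and HSPA8. DNAJB1 rose from 1 d to 9 d, while DNAJA1 passed in no comparison.

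DNAJB1 read 9.33, 9.16, 9.04, 8.88 and 9.44 in CON and 9.01, 8.64, 9.06, 9.24 and 9.09 in HIGH at -8 d. CON arrays at 1 d read 9.15, 8.66, 8.82 and 8.89, and HIGH ran from 8.60 through 8.95 to 9.81. The CON arrays at 9 d ran from 8.77 through 9.32 to 10, with cows 527 and 528 at the top, and HIGH from 9.05 through 9.34 to 9.58. The groups of each day overlapped. The change was 0.37 from 1 d to 9 d (SE 0.12, limma adjusted p = 0.043; 8 of 10 cows higher), and it was lost in 15 of 32 fits without 1 array (0.32 to 0.45), with cow as a fixed effect (0.32, adjusted p = 0.074), in the mean of its probe sets (0.18, adjusted p = 0.27) and without the 2 arrays with muscle transcripts (0.33, adjusted p = 0.094). DNAJA1 spread over more than its changes, from 7.52 to 8.61 at -8 d, from 7.11 to 8.68 at 1 d and from 7.50 to 8.56 at 9 d. Its change from -8 d to 1 d was -0.23 (SE 0.16, adjusted p = 0.31), with 7 of 8 cows lower, and it passed with cow as a fixed effect (-0.33, adjusted p = 0.043).

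DNAJC9, a nuclear J protein that chaperones histones, had the largest rise among the J proteins. At -8 d it was tightly grouped, at 5.95, 5.95, 5.99, 6.07 and 6.19 in CON and 6.00, 6.04, 6.18, 6.03 and 5.87 in HIGH. At 1 d the CON arrays read 6.10, 6.21, 6.77 and 6.31, and the HIGH arrays ran from 5.58 through 5.85 to 7.42, the top value being that of cow 512. At day 9 CON ran from 6.07 through 6.49 to 7.40 and HIGH from 6.24 through 6.65 to 7.16, the latter above every array at -8 d. The SD over the arrays of a day was 0.10 before calving, 0.58 at 1 d and 0.41 at 9 d (10, 10 and 12 arrays). The rise from -8 d to 9 d was 0.56 (SE 0.16, 1.48-fold, limma adjusted p = 0.024; 10 of 10 cows higher), and it was lost in 1 of 32 fits, without cow 462 in HIGH at 9 d (0.51, adjusted p = 0.053).

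Smaller changes were seen in DNAJA4, a cytosolic J protein that rose by 0.28 at 1 d (SE 0.08, limma adjusted p = 0.012), and DNAJC5, the cysteine string protein of secretory vesicles, which rose by 0.32 at 1 d (SE 0.08, adjusted p = 0.0054). All 10 cows with both arrays had more DNAJC5 signal at 9 d than before calving, but the change of 0.23 did not pass (adjusted p = 0.067). DNAJB5, expressed at a mean of 4.55 near the floor of the array, changed by -0.23 at 1 d (adjusted p = 0.024) and by 0.23 from 1 d to 9 d (adjusted p = 0.025). Both DNAJB5 calls were lost without cow 510 in CON at 1 d, and the first also with cow as a fixed effect (-0.17, adjusted p = 0.087), and the second without cow 529 in HIGH at 9 d. DNAJC12, which binds phenylalanine hydroxylase and other aromatic amino acid hydroxylases, had the widest spread: its group means ran from 11.02 ± 0.38 (CON at -8 d, SD, n = 5) down to 10.08 ± 0.60 (HIGH at 9 d, SD, n = 6), and its change of -0.61 from -8 d to 9 d did not pass (SE 0.22, adjusted p = 0.074). The change of DNAJC12 from 1 d to 9 d was -0.59, with 10 of 10 cows lower, and did not pass either. DNAJC7, a J protein that bridges HSP70 and HSP90, did not pass by its brightest probe set (0.02 at 1 d), whereas its dimmer probe set rose by 0.31 at 1 d (adjusted p = 3.6e-05) and 0.22 at 9 d (adjusted p = 0.0021).

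Over both diets, 2 of the 5 J proteins of the endoplasmic reticulum listed at the start rose at 1 d and 2 fell from 1 d to 9 d, and DNAJC10 alone did both. On the whole array, 16.5% of genes rose at 1 d. From 1 d to 9 d, 6.99% of probe sets fell, and 17.5% of genes by their brightest probe set passed in either direction. DNAJC10, a disulfide reductase, and DNAJB11, a partner of HSPA5, rose at 1 d by 0.34 (SE 0.08, limma adjusted p = 0.0021) and 0.24 (SE 0.09, adjusted p = 0.038). From 1 d to 9 d DNAJC10 changed by -0.34 (SE 0.07, adjusted p = 0.0023), with 10 of 10 cows lower, and DNAJB9 by -0.42. DNAJC10 had 2 dimmer probe sets, and its call from 1 d to 9 d was lost in the mean of all its probe sets (-0.18, adjusted p = 0.059). DNAJB11 was lost in 11 of 32 fits without 1 array (0.19 to 0.28), and its change of -0.22 from 1 d to 9 d did not pass (adjusted p = 0.075). DNAJB12 and DNAJC18 passed in no comparison by their brightest probe sets, and a dimmer DNAJB12 probe set changed by -0.15 at 1 d (adjusted p = 0.027).

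DNAJB9, which restrains the unfolded protein sensor IRE1, read 11.99, 11.54, 11.48, 11.74 and 11.92 in CON and 10.87, 11.41, 11.70, 11.63 and 11.40 in HIGH at -8 d. The CON arrays at 1 d read 12.08, 11.56, 12.29 and 11.33, and HIGH ran from 11.54 through 11.91 to 12.26. CON then ran at 9 d from 11.09 through 11.49 to 12.13 and HIGH from 11.04 through 11.42 to 11.71. The groups overlapped, yet the 1 d array was the higher of the pair in 8 of 8 cows. The fall from 1 d to 9 d was -0.42 (SE 0.12, limma adjusted p = 0.014), lost without cow 483 in CON at 1 d (-0.34, adjusted p = 0.063). The change from -8 d to 1 d was 0.32 (adjusted p = 0.056) and passed with cow as a fixed effect (0.42, adjusted p = 0.0041).

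The chaperones of the endoplasmic reticulum that the name rule left out or did not cover had larger median changes than the members at 1 d and from 1 d to 9 d, but not at 9 d against -8 d (0.01 against 0.07). Of 21 such genes, 20 rose at 1 d with a median of 0.59, where 16.5% of all genes rose. From 1 d to 9 d, 18 of the 21 fell with a median of -0.53. In that comparison 6.99% of all probe sets fell, and 17.5% of genes by their brightest probe set passed in either direction. HSPA5, the HSP70 of that compartment, changed by 0.67 (SE 0.15, limma adjusted p = 0.0015) and -0.48 (adjusted p = 0.022), CALR, a calcium-binding lectin chaperone, by 0.99 and -1.06, and CRELD2, a secreted stress-responsive protein, by 1.23 and -0.91; these 3 were chosen after their values were seen. Of 17 measured classical heat shock factor targets, 13 of them members, 4 rose at 1 d (HSPA4, HSPA8, HSPE1 and CHORDC1) with a list median of 0.12, and 3 rose at 9 d against -8 d (HSPA1A, HSPA8 and HSPD1) with a median of 0.14. Among all genes, 16.5% rose at 1 d and 7.79% at 9 d against -8 d. The difference between the lists was not tested.

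**Figure D3:**
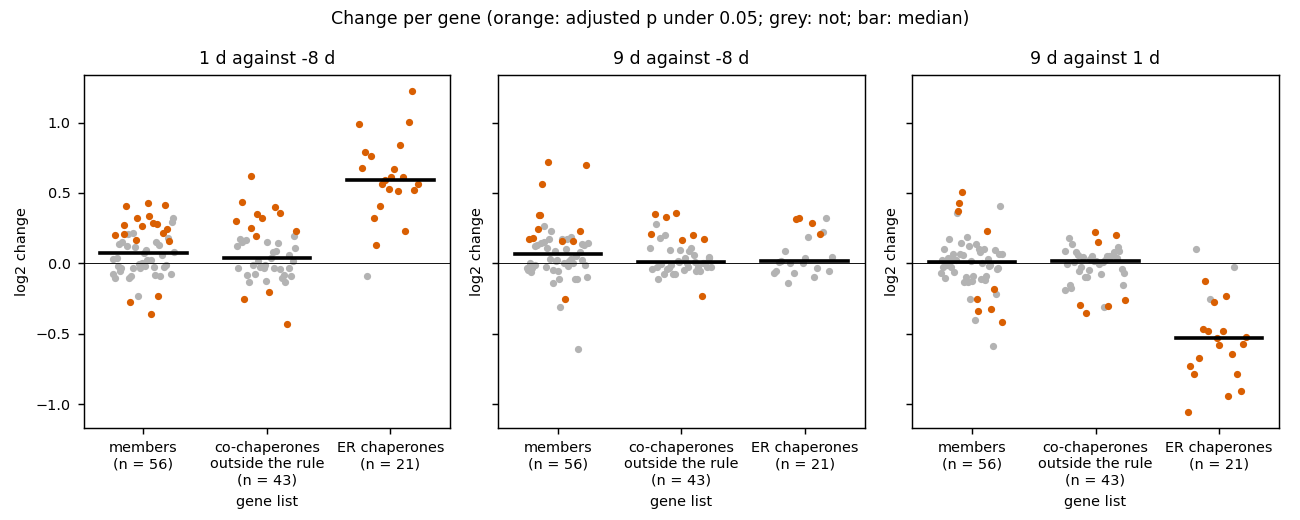
Log2 change per gene (vertical axis) in the 3 comparisons of days for the 56 members, 43 co-chaperones outside the rule and 21 chaperones of the endoplasmic reticulum; orange points had an adjusted p under 0.05 and bars mark the medians. At 1 d the median of the endoplasmic reticulum list is 0.59 against 0.08 for the members, and at 9 d against -8 d all 3 medians lie between 0.01 and 0.07.

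The small heat shock proteins, which hold unfolded proteins without ATP, moved in HSPB6 alone. HSPB6, abundant in muscle, read 5.22, 5.62, 5.68, 5.49 and 5.82 in CON and 5.70, 5.70, 6.18, 5.67 and 5.64 in HIGH at -8 d. At 1 d it read 5.23, 5.28, 5.40 and 5.31 in CON and ran from 5.19 through 5.39 to 5.96 in HIGH. By 9 d CON ran from 5.49 through 5.65 to 6.12, the top value being cow 528 with muscle transcripts, and HIGH from 5.66 through 5.96 to 6.20. All 6 CON arrays at 9 d lay above all 4 at 1 d. The change was -0.27 from -8 d to 1 d (SE 0.09, limma adjusted p = 0.029) and 0.43 from 1 d to 9 d (SE 0.09, adjusted p = 0.0009; 9 of 10 cows higher). Without the 2 arrays with muscle transcripts the latter was 0.38 and still passed. The former was lost in 5 of 32 fits without 1 array (cows 483 and 528 in CON and 460 in HIGH at -8 d, 477 in CON and 439 in HIGH at 1 d), with changes from -0.33 to -0.23. Of 10 markers of stellate cells, fibroblasts and smooth muscle, which can also express HSPB6, 1 fell at 1 d (ACTA2, which rose again from 1 d to 9 d), and the mean level of the list was 7.47 at -8 d (7.01 to 7.84), 7.35 at 1 d (6.75 to 8.08) and 7.40 at 9 d (7.03 to 8.14). Among 6 striated muscle markers, MYH7 averaged 10.48, 10.18 and 10.58 on the successive days and rose from 1 d to 9 d (0.41, limma adjusted p = 0.045), and the other 5 passed in no comparison between days over both diets. MYH7 did not follow ACTA1: at 1 d it read 9.74 to 10.96, where ACTA1 read 3.40 to 3.68. Its highest value was 11.13 at both -8 d and 9 d, so it did not set apart the arrays with muscle transcripts. The part of either kind of cell in the change of HSPB6 was not tested.

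HSPB1, the most abundant small heat shock protein here, did not pass in any comparison. It lay between 12.54 and 12.76 at -8 d, between 12.24 and 13.09 at 1 d and between 12.38 and 12.67 at 9 d. In CON all 6 arrays at 9 d (12.38 to 12.49) lay below all 5 at -8 d (12.56 to 12.76). Averaged over the diets the change from -8 d to 9 d was -0.14 (95% interval -0.27 to -0.01, limma adjusted p = 0.19).

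Among the BAG exchange factors, BAG4 rose and BAG2 fell. BAG4, also known as the silencer of death domains, read 4.65, 4.62, 4.70, 4.54 and 5.04 in CON and 4.93, 4.65, 5.03, 4.87 and 4.86 in HIGH at -8 d. At 1 d it read 5.31, 5.10, 5.13 and 5.11 in CON and ran from 5.10 through 5.27 to 5.32 in HIGH. Every array at 1 d thus lay above every array at -8 d in both diets, which held for 1 of the 56 members and for 1.27% of all probe sets. The CON arrays at 9 d ran from 4.93 through 5.09 to 5.23 and HIGH from 4.71 through 5.01 to 5.25. The rise was 0.41 at 1 d (SE 0.06, 1.33-fold, limma adjusted p = 1.8e-05; 8 of 8 cows higher) and 0.23 at 9 d against -8 d (SE 0.06, adjusted p = 0.012; 8 of 10 cows higher). The change of -0.18 from 1 d to 9 d (adjusted p = 0.048) was lost in 23 of 32 fits without 1 array and with cow as a fixed effect (-0.18, adjusted p = 0.081). BAG4 lay below the median of the array, 5.90 over all probe sets, where RMA compresses changes.

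BAG2, an exchange factor that inhibits the ubiquitin ligase CHIP, changed by -0.36 at 1 d (SE 0.09, limma adjusted p = 0.0032; 7 of 8 cows lower) and by -0.26 at 9 d (SE 0.08, adjusted p = 0.045; 10 of 10 cows lower). The latter call was lost in 16 of 32 fits without 1 array (-0.27 to -0.23) and without the 2 arrays with muscle transcripts (-0.27, adjusted p = 0.055). BAG5, which acts on HSP70 and Parkin, rose by 0.27 at 1 d (SE 0.09, adjusted p = 0.033), a call lost in 8 of 32 such fits (0.23 to 0.30), and its change of -0.25 from 1 d to 9 d passed with cow as a fixed effect (-0.27, adjusted p = 0.027), without probe sets of a mean under 5 (adjusted p = 0.030) and in 5 of 32 fits without 1 array. BAG3, the stress-inducible partner of HSPB8 in selective autophagy, had means of 10.56 ± 0.26, 10.68 ± 0.26 and 10.71 ± 0.28 on the successive days (SD over 10, 10 and 12 arrays). BAG1, which links HSP70 to the proteasome, had 9.39 ± 0.09, 9.42 ± 0.13 and 9.35 ± 0.13. Neither passed, and their 95% intervals from -8 d to 9 d ran from -0.07 to 0.36 for BAG3 and from -0.14 to 0.06 for BAG1.

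**Figure D4:**
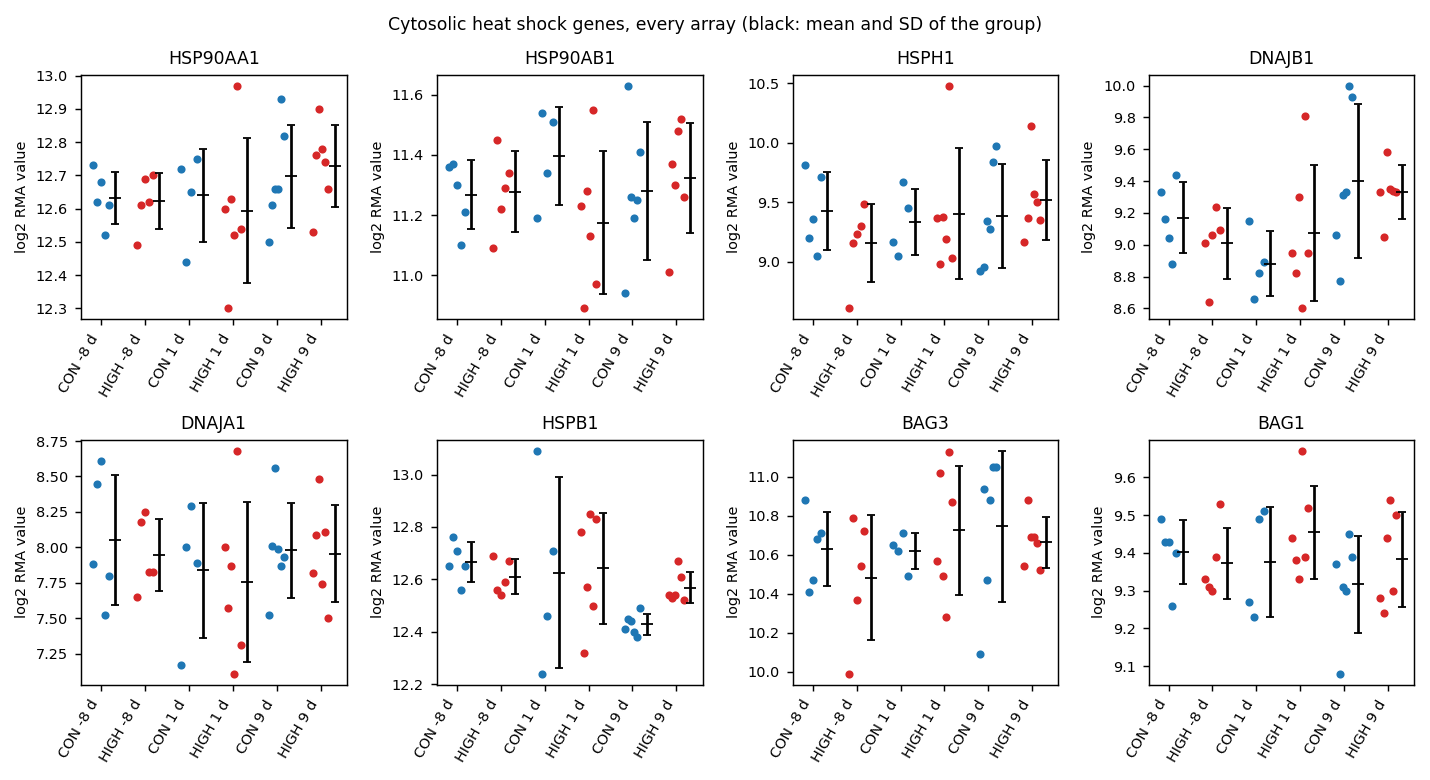
Log2 RMA value (vertical axis) of 8 cytosolic heat shock genes on every array of the 6 diet-by-day groups (horizontal axis; blue CON, red HIGH), with the group mean and SD in black. The groups overlap for HSP90AA1, HSP90AB1, HSPH1, DNAJB1, DNAJA1, BAG3 and BAG1, and the array of cow 512 in HIGH at 1 d is the highest of its group for HSPH1 (10.48), DNAJB1 (9.81) and DNAJA1 (8.68).

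Single arrays stood apart in the heat shock factor targets, also before calving. At -8 d, cow 527 in CON was the lowest of its group for 11 of 13 such members (mean deviation -0.225). Cow 432 in HIGH was the lowest for 9 of 13 at -8 d (mean deviation -0.217). Both arrays enter every change against -8 d averaged over the diets. The array of cow 512 in HIGH at 1 d was the highest of its group for 10 of 13 such members, with a mean deviation of 0.42 from the group mean. Its HSPH1 was 10.48, where the other 5 HIGH arrays ran from 8.98 to 9.38, and its deviation was 0.92 for DNAJA1, 0.74 for DNAJB1 and 0.64 for HSPA1A. Over all 56 members the median deviation of that array was 0.03. At 9 d the same cow had a mean deviation of 0.05, and it had no array at -8 d. In CON at 9 d, cow 528, whose array carried the muscle transcripts, was highest for 8 of the 13 (mean deviation 0.23), and cow 445 lay below the group mean for all 13 (-0.24). In HIGH at 9 d, cows 432 (-0.17) and 529 (-0.11) lay above their group mean for 0 of the 13. Without the array of cow 512 the rise of HSPA8 at 1 d was 0.24 (limma adjusted p = 0.053), the change of DNAJC9 from 1 d to 9 d was 0.48 (adjusted p = 0.013) and the rise of DNAJB1 from 1 d to 9 d was 0.45 (adjusted p = 0.0070).

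**Figure D5:**
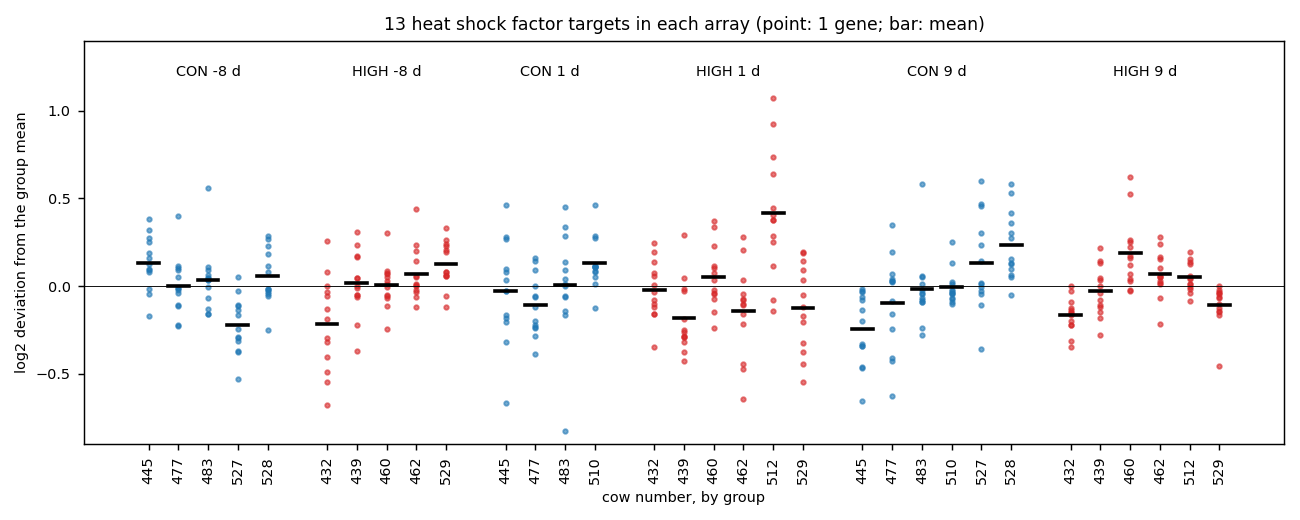
Deviation of 13 heat shock factor targets (points) from their group mean on each array (horizontal axis: cow number, by group), with the mean over the 13 genes as a bar. The bar of cow 512 in HIGH at 1 d stands at 0.42, and all 13 points of cow 445 in CON at 9 d lie below 0.

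Within each diet the same comparisons gave fewer calls. From -8 d to 1 d, 3 members passed in CON (DNAJC11, DNAJC5 and BAG4), where 6.34% of probe sets passed, and 12 in HIGH, where 16.6% did. From -8 d to 9 d, 2 passed in CON (BAG4 0.37 and HSPA2 0.74; 1.84% of probe sets) and 3 in HIGH (HSPA1A 0.80, HSPA8 0.45 and DNAJC11 0.42; 3.56%). From 1 d to 9 d, none passed in CON by limma (7 at an unadjusted p under 0.05; 2.76% of probe sets) and 8 in HIGH (9.14%). The CON group had 4 arrays at 1 d and HIGH had 6. In HIGH from -8 d to 1 d, the largest rises were HSPA4 at 0.56, DNAJB9 at 0.52, DNAJC10 at 0.49 and DNAJC11 at 0.49, and BAG2 and DNAJB5 fell, by 0.35 and 0.33 on the log2 scale. From 1 d to 9 d in HIGH, DNAJB2, a J protein of neurons, rose by 0.35, and CCT3, a CCT ring subunit, by 0.26. These counts moved with single arrays: without cow 477 or cow 527 at -8 d or cow 483 at 1 d, 1 member passed in CON from -8 d to 1 d, and without cow 439 in HIGH at 1 d, 3 passed in HIGH from 1 d to 9 d. The arrays of 1 d and -8 d did not overlap for 3 members in CON, where 6.62% of all probe sets did not, and for 7 in HIGH, where 6.57% did not. Those of 9 d and -8 d did not overlap for 3 members in CON (2.11% of probe sets) and 5 in HIGH (3.48%), and those of 9 d and 1 d for 1 in CON (3.12%) and 2 in HIGH (3.05%). With both diets pooled, no member separated at 9 d against -8 d (0.387% of probe sets) or against 1 d (0.454%).

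A larger count in HIGH does not show that the diets differed, and the tests of that difference found none. No member passed for HIGH against CON on any of the 3 days by limma (2, 4 and 0 at an unadjusted p under 0.05), where 0%, 0.00416% and 0% of all probe sets passed. Nor did any pass for the difference between diets in the change over time (2, 2 and 4 at an unadjusted p under 0.05), where 0% of probe sets passed. At -8 d the members with the smallest p were DNAJC6, an uncoating factor of clathrin (-0.35, 95% interval -0.69 to -0.01), CCT8 (-0.17, -0.34 to -0.01) and CCT6A (-0.22, -0.44 to 0.00), each with a limma adjusted p of 0.9996. At 1 d they were DNAJB5 (-0.30, -0.53 to -0.07), DNAJB2 (-0.29, -0.52 to -0.06) and HSPB2 (0.25, 0.02 to 0.47), with adjusted p from 0.50 to 0.56. At 9 d they were HSPB3 (-0.15, -0.31 to 0.00), DNAJC11 (0.13, -0.03 to 0.29) and DNAJB12 (-0.11, -0.24 to 0.03), each with a limma adjusted p of 0.9984.

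The intervals show what the diet comparison could resolve. The 95% interval of HIGH against CON lay within 0.5 of 0 for 46, 43 and 52 of the 56 members on the successive days, and it was widest for DNAJC12, which reached -1.09 at -8 d and 1.05 at 1 d. For HSPA1A it ran from -0.59 to 0.24 at -8 d, from -0.59 to 0.25 at 1 d and from -0.39 to 0.36 at 9 d. For HSPD1 it ran from -0.13 to 0.16, from -0.19 to 0.10 and from -0.13 to 0.14. For the difference between diets in the change over time, the smallest p belonged to HSPB2 (0.37), DNAJB2 (-0.31) and DNAJC10 (0.31) from -8 d to 1 d, to HSPB3 (-0.25), BAG4 (-0.27) and CCT8 (0.20) from -8 d to 9 d, and to DNAJB2 (0.36), DNAJC27 (-0.41) and DNAJC10 (-0.34) from 1 d to 9 d. None of these passed after adjustment, and a missed threshold does not show that the diets acted alike.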

How the data were processed

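The deposited values were log2 RMA expression values, which the submitters' processing notes credit to Affymetrix Expression Console 1.1; its settings are not given in the sources used here. Of these, 112 control probe sets were left out and 24016 tested; 13292 carried 1 symbol, 86 several and 10638 none. Each member was read by its probe set with the highest mean; 19 had several probe sets. limma 3.58.1 (R 4.3.3) estimated a mean per diet and day (6 groups), taking cow as random block (correlation 0.138, from the cow numbers in the labels, which pair arrays of 1 animal; title replicate numbers do not), empirical Bayes with a trend, 26 residual degrees of freedom and two-sided Benjamini-Hochberg adjustment per comparison. The number of arrays limits the precision. The fit was tested on simulated data. Members, gene lists and tests were chosen with earlier results of these data known. Members named were 13 major chaperones present here, then up to 10 members with the largest rises and falls past the threshold per comparison and, for diet, the 3 with the smallest p; DNAJC7, DNAJC12, DNAJC19, CCT5, members called within 1 diet and single arrays were added after their values were seen. Alternatives were another block, scaling, filter or probe set rule, complete cows, and each array left out. No sequences were used here.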

Additional observations from a re-analysis of the deposited data

Results flagged for a closer look

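Of 120 groups of arrays examined over 20 members, 3 held a value far from the rest of its group, and chance alone flags about 1 group in 20. HSPH1 was 10.48 in cow 512 of HIGH at 1 d, where the other arrays of the group ran from 8.98 to 9.38. HSPB6 was 6.18 in cow 460 of HIGH at -8 d, where the others ran from 5.64 to 5.70. BAG4 was 5.31 in cow 445 of CON at 1 d, where the others ran from 5.10 to 5.13.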

How the results depend on the processing

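No member named changed sign past the threshold under the alternatives below, but the dimmer probe set of HSPA4, taken alone, passed in the opposite direction at 1 d and from 1 d to 9 d. With only the cows sampled on all 3 days, 9 members passed from -8 d to 1 d (8 rose, 1 fell), 6 from -8 d to 9 d (5 rose), and 3 fell from 1 d to 9 d; this fit has fewer arrays. Without probe sets of a mean under 5, 15 passed from 1 d to 9 d (11 fell), 2 fell from -8 d to 9 d, and 4 (CON, -8 d to 9 d), 1 (CON, 1 d to 9 d) and 5 (HIGH, -8 d to 9 d) passed within a diet; fewer probe sets are tested then. With the mean of all probe sets of a gene, 5 passed from 1 d to 9 d (2 rose, 3 fell) and 0 fell from -8 d to 9 d. The number that fell from -8 d to 9 d, 1 in the report (BAG2), was 0 with no replicate block, 0 with arrays centred on their medians and 0 without the 2 arrays with muscle transcripts, an alternative chosen after seeing the data, and 2 with cow as a fixed effect; the number called in CON from -8 d to 9 d was 1 with no replicate block and 1 without those 2 arrays. The causes were not tested, and the share of all probe sets that passed under each alternative is not given here. Leaving out each array in turn gave 12 to 19 called members from -8 d to 1 d (9 to 16 rose, 2 to 3 fell), 8 to 13 from -8 d to 9 d (8 to 12 rose, 0 to 2 fell) and 5 to 12 from 1 d to 9 d (2 to 5 rose, 2 to 9 fell); the lowest counts came without cow 477 or 527 in CON at -8 d, and without cow 483 in CON at 1 d. Without cow 529 in HIGH at 9 d, 2 rose from 1 d to 9 d, and without cow 432 in HIGH at 1 d, 9 fell. Within CON the ranges were 1 to 4, 0 to 3 and 0 to 1, and within HIGH 8 to 13, 1 to 5 and 3 to 10; the lowest count from -8 d to 9 d in HIGH came without cow 432 at -8 d, and the highest without cow 510 in CON or cow 512 in HIGH at 1 d. The diet comparisons and the difference between diets in the change over time stayed at 0 called members under every alternative run; with cow as a fixed effect the diet comparisons cannot be estimated, since each cow had 1 diet. With cow as a fixed effect, 15, 12 and 9 members passed, of which 13, 10 and 7 were those of the report. The calls lost in this fit are given there. Not every member that it added is named, and none of those added from -8 d to 9 d is. Signals near either end of the scale limit the size of changes that can be measured.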
